A study of Mus musculus with 12 samples.

Results

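The peroxisome proliferator-activated receptors (PPARs) and genes around them were followed in liver and lung of acrylamide-treated and untreated mice. The set holds 7 genes, which are the receptors Ppara, Ppard and Pparg, the coactivators Ppargc1a and Ppargc1b, and the target genes Pdk4 and Angptl4. They were picked by name, with the liver difference between acrylamide and control already known for these data, from 26228 named genes on the array. They occupy 11 of 61657 non-control spots. Ppara, Pparg, Ppargc1a and Ppargc1b have 2 spots each and the others 1.

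RNA of female B6C3F1/Nctr mice was labelled with Cy3 and hybridised to 12 Agilent 1-colour arrays. The groups were liver with acrylamide at 0.7 mM, untreated liver, lung with acrylamide at 0.7 mM and untreated lung, with 3 arrays each, and every animal was of the same strain and sex. Acrylamide is a small reactive amide that the body converts to an epoxide, glycidamide. Neither the route and length of exposure nor the age is given in the sources used here, and the design text gives an n of 3 without saying that each array is a separate animal. P-values therefore measure the spread between these arrays, which may be technical.

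PPARs are nuclear receptors that bind fatty acids and their derivatives. Each pairs with a retinoid X receptor on DNA, and coactivators such as PGC-1alpha (Ppargc1a) and PGC-1beta (Ppargc1b) join the pair when ligand is bound. PPARalpha is the main receptor of the hepatocyte and drives fatty acid oxidation and ketone formation in fasting, PPARdelta is present in most tissues, and PPARgamma is best known from fat cells and is needed for the maturation of alveolar macrophages.

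Levels are given below as scaled intensity, on which 1000 is the 75th percentile of each array's non-control spots. Intensity depends on the probe as well as on the transcript, so a spot was set only against itself on other arrays. Differences are log2, acrylamide minus control, with the standard error (SE) of limma's moderated fit over all genes, n = 3 arrays against 3. In whole tissue, fewer cells of a type and less RNA per cell cannot be told apart.

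The tissue entry of all 12 arrays says liver, whereas the titles of 6 say lung. Albumin (Alb) read 8283 to 18617 on the arrays titled lung and 633149 to 1207720 on those titled liver, and the surfactant gene Sftpc read at least 301129 on the arrays titled lung and at most 6172 on those titled liver, so the titles were used. Liver acrylamide 30 stood apart, with 34287 spots above background, against 46450 to 51099 on the other 11 arrays. Liver acrylamide 27 and 29 had higher readings of some lung cell genes than the other liver arrays. Sftpc read 6172 and 637 on them, against 20.7 on acrylamide 30 and 5.72 to 17.6 on liver controls, and the club cell gene Scgb1a1 read 5088 and 2445, against 66.1 on acrylamide 30 and 74.8 to 144 on liver controls. Of the 7 alveolar type 2 markers tested in liver, 5 were higher with acrylamide by group means. The other 2 were lower, Slc34a2 (-0.15 ± 0.91) and Abca3 (-0.09 ± 0.20). All 4 club cell markers were higher, though Cyp2f2 by only 0.22 ± 0.13. The part of lung cell transcripts in the values below was not tested. Each title opens with a number, 18 on lung and 19 on liver arrays, followed by a digit of 1 or 2. These were taken as the slide and its row, which the labels do not state.

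**Figure D1:**
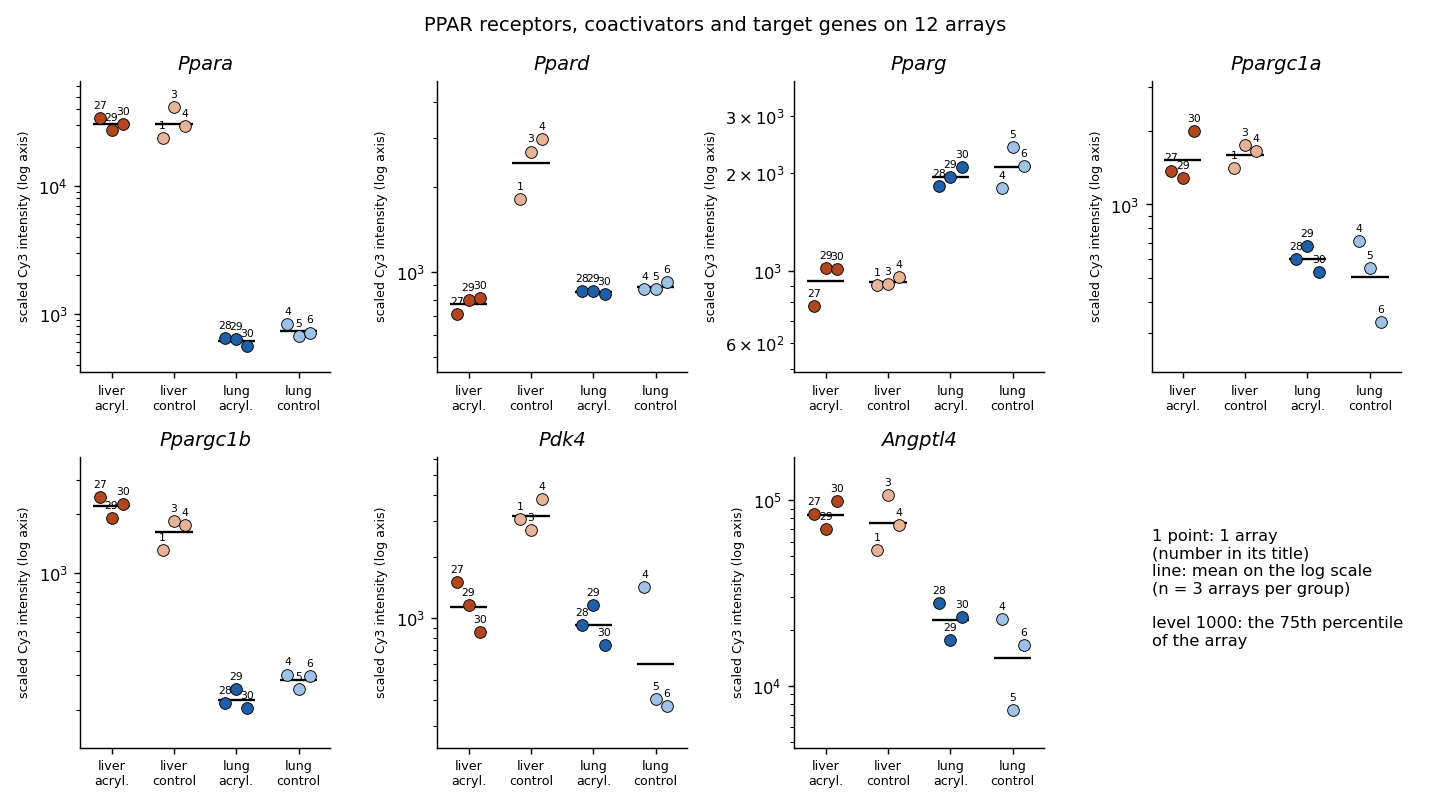
Scaled Cy3 intensity (log axis) of the best-expressed spot of each of the 7 genes on the 12 arrays. Each point is 1 array with the number in its title and each line is the mean on the log scale of 3 arrays; in liver, Ppard and Pdk4 of the acrylamide arrays lie below all 3 controls, and the lung groups of Ppard lie within 839 to 926.

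In liver, Ppard was lower on every acrylamide array than on any control array. It had a scaled intensity of 710, 798 and 810 on acrylamide arrays, against 1825, 2679 and 2975 on control arrays. All acrylamide readings lay below the 75th percentile of their arrays and all control readings above it. The difference was -1.66 ± 0.22 (SE), or 0.316 of the control level, and 0.236% of the 21169 genes tested in liver had a more negative one. This contrast guided the choice of the genes, so the liver values are a description without a test. Leaving out any 1 array gave -1.87 to -1.52, and within the slide rows it was -1.54 in row 1 (2 arrays against 2) and -1.90 in row 2 (1 against 1).

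Pdk4 encodes pyruvate dehydrogenase kinase 4, which holds back the use of glucose carbon in mitochondria and is a known target of PPARs. Its scaled intensity was 1504, 1162 and 854 on liver acrylamide arrays, against 3048, 2713 and 3845 on liver controls. All acrylamide arrays again lay below all controls. The difference was -1.47 ± 0.25 (SE), 0.361 of the control level, and 0.383% of genes had a more negative one. The row values were -1.34 and -1.73, and leaving out any 1 array gave -1.67 to -1.26. As the liver groups of Ppard and Pdk4 did not overlap, the signs in these comparisons were fixed in advance.

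These are the genes on which the liver results turn, so their promoters are shown. Each is 250 bases before to 50 bases after the transcript start, from RefSeq on GRCm38.p6, written 5′ to 3′ on the gene's strand. Ppard lies at chr17:28232504-28232803 on the plus strand, and Pdk4 at chr6:5496229-5496528 on the minus strand. Capitals mark a CCAAT box, here read on the opposite strand as ATTGG, a motif added to the search after the sequences had been seen.
Ppard: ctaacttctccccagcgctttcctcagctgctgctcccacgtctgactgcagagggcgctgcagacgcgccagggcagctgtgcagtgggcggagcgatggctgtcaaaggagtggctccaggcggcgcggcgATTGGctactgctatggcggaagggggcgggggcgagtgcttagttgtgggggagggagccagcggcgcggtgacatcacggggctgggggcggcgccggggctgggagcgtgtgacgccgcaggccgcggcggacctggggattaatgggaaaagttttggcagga
Pdk4: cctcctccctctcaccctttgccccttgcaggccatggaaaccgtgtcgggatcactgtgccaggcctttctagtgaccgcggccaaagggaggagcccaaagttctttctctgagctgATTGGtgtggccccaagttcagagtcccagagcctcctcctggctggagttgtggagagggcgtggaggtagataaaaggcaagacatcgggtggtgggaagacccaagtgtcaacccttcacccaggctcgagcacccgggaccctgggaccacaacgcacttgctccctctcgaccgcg

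The CCAAT box lies 117 bases before the start in Ppard and 131 bases before it in Pdk4, and 37.4% of 32851 mouse promoter windows of this length hold one. The GC content was 68.3% and 60.7%. Of the other motifs searched on both strands, neither window holds the nuclear receptor half-site AGGTCA, which 16.3% of windows hold, or its direct repeat spaced by 1 base, which 0.0396% hold. Neither holds the E-box CACGTG, present in 7.15%, the D-box TTATGTAA, present in 0.938%, or the forkhead motif GTAAACA, present in 3.65%. Windows of 5 of the 7 genes were searched. Angptl4 and Ppargc1b were left out of the motif search, so nothing is said of their promoters. AGGTCA was present in 2 of the 3 Pparg windows, 28 and 9 bases before their starts. A match describes letters in this window and is not a binding site.

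The other receptors stood at similar levels in both liver groups. Ppara, the dominant PPAR of hepatocytes, read 33757, 27577 and 30345 with acrylamide, against 23738, 41378 and 29231 in controls. The control arrays spanned a wider range than the acrylamide arrays and enclosed them. The difference was -0.01 ± 0.23 (SE), with a 95% interval of -0.58 to 0.56, and the gene's other spot gave -0.01 ± 0.28. Pparg read 781, 1022 and 1013 with acrylamide, against 901, 910 and 954 in controls, a difference of 0.02 ± 0.16 with an interval of -0.37 to 0.40. The other Pparg spot was near background throughout, at 2.07 to 67.7, and was above background on 7 of 12 arrays. Its highest reading was on liver acrylamide 30, whose background limit was 56.9 on this scale, against 1.94 to 7.87 elsewhere.

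Of the coactivators, Ppargc1b was the higher one with acrylamide in liver. It read 2469, 1909 and 2272 on liver acrylamide arrays, against 1313, 1852 and 1765 on controls. All acrylamide arrays lay above all controls, although acrylamide 29 exceeded control 3 by a small margin. The difference was 0.44 ± 0.19 (SE), and the second spot, at 192, 161 and 174 against 107, 122 and 131, gave 0.55 ± 0.16. Within the slide rows the first spot gave 0.60 and 0.11. Ppargc1a, whose product is the fasting-induced member of the pair, read 1375, 1284 and 1988 with acrylamide, against 1406, 1739 and 1658 in controls, with a difference of -0.07 ± 0.21 and overlapping groups. Its second spot, at 396, 377 and 375 against 420, 501 and 477, had no overlap and a difference of -0.28 ± 0.14, so the spots of Ppargc1a differ in whether the groups separate.

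Angptl4 encodes a secreted inhibitor of lipoprotein lipase and is a target of all PPARs. In liver it read 84190.1, 70036 and 98930.3 with acrylamide, against 54002, 107488 and 73436 in controls. The groups overlapped, with a difference of 0.15 ± 0.29 (SE), while Pdk4, the other target gene, was lower on every acrylamide array. Of the 7 genes, 3 had liver groups without overlap on their best-expressed spot (Ppard and Pdk4 lower, Ppargc1b higher), where 12.2% of all genes had no overlap (5.44% higher and 6.74% lower). As the genes were chosen on this contrast, nothing is read from that share.

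Markers of other cells also stood apart between the liver groups. The summed scaled intensity of 10 Kupffer cell and macrophage genes was 88796, 84711 and 80389 on acrylamide arrays, against 67603, 55211 and 74383 on controls, without overlap, and all 10 were higher by their group means. The summed hepatocyte markers overlapped, at 3049730, 3061390 and 5041780 on acrylamide 27, 29 and 30, against 3704890, 4060090 and 4264920 in controls. The overlap turned on acrylamide 30, the array with the fewest spots above background, while 27 and 29 lay below all controls. By their means, 7 of the 8 hepatocyte markers were lower, with a median of -0.14. B and T cell markers were lower in 7 of 8, with a median of -0.54 and overlapping sums of 3213, 2477 and 2807 with acrylamide, against 3989, 2628 and 3793 in controls. Of these, Cd79b (-1.08 ± 0.38) and Il7r (-0.94 ± 0.30) were lower by 1.5-fold or more with an unadjusted p under 0.05 in limma, which held for 2.02% of all genes. Of the macrophage genes, Adgre1 (0.68 ± 0.23) met the same rule in the higher direction, as did 1.69% of all genes. The part of macrophages, hepatocytes and lymphocytes in the liver values of Ppard, Pdk4 and Ppargc1b was not tested.

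**Figure D2:**
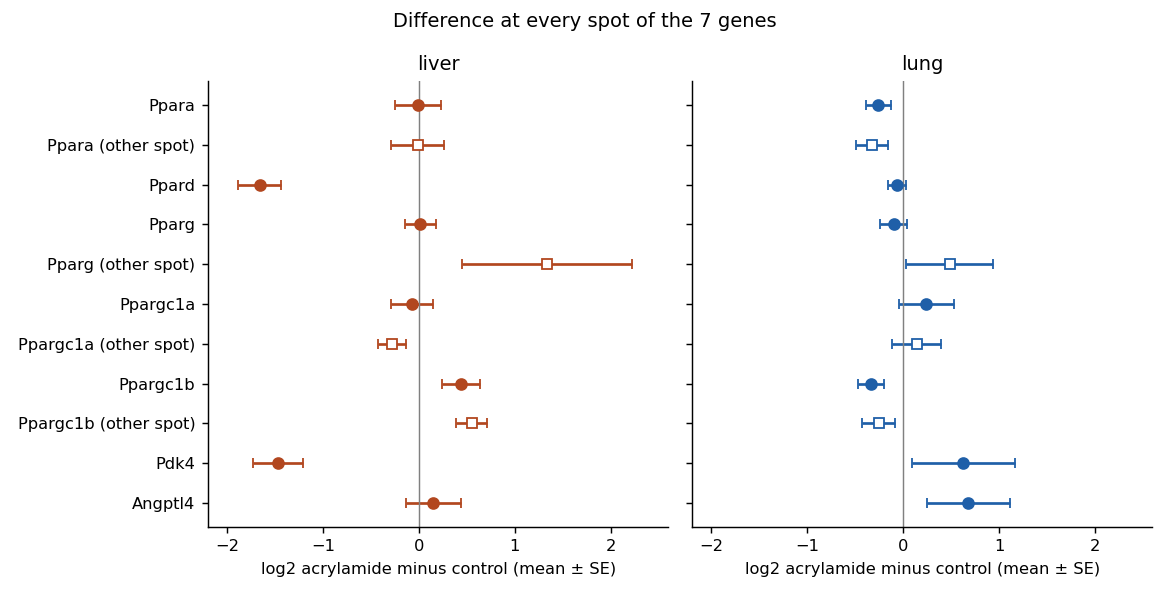
Log2 difference, acrylamide minus control, with its SE (bars, n = 3 arrays against 3) for all 11 spots of the 7 genes in liver and lung. Filled points are the best-expressed spots and open squares the others; in liver Ppard at -1.66 and Pdk4 at -1.47 lie far left of 0, and in lung the widest bars are those of Pdk4 (0.63 ± 0.54), Pparg's dim spot and Angptl4 (0.68 ± 0.43).

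In lung the question was whether the same genes differ with acrylamide in a second tissue, on arrays that are separate from those of the liver contrast. Title numbers 4, 29 and 30 occur in both tissues, and whether they mark the same animals was not established. Ppard read 859, 858 and 839 on lung acrylamide arrays, against 871, 876 and 926 on lung controls. The groups did not overlap, but the gap between them was small. The difference was -0.06 ± 0.09 (SE), with a 95% interval of -0.27 to 0.15 (limma, adjusted p = 0.998 over 22252 genes). The lung difference minus the liver difference was 1.598 ± 0.23 for Ppard, a value that contains the liver contrast and is given without a test.

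Pdk4 read 928, 1158 and 745 on lung acrylamide arrays, against 1428, 405 and 374 on lung controls. Control 4 was the highest of the 6 arrays and the other controls were the lowest. The difference was 0.63 ± 0.54 (SE; interval -0.70 to 1.96; limma, adjusted p = 0.998). It was 1.25 without control 4 and 0.29 without control 6, and 1.04 and 0.66 within slide rows 1 and 2, which hold 2 arrays against 1 and 1 against 2. The lung difference minus the liver difference was 2.10 ± 0.65. For this quantity no gene of 23300 passed the adjusted threshold in limma, and 4.44% had an unadjusted p under 0.05.

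Angptl4 in lung read 27981, 17676 and 23455 with acrylamide, against 22882, 7438 and 16560 in controls. Control 5 was the lowest array, and the other controls fell among or just below the acrylamide arrays. The difference was 0.68 ± 0.43 (SE; interval -0.39 to 1.75; limma, adjusted p = 0.998), and 0.22 without control 5. It was 1.78 within slide row 1, where control 5 is the single control, and -0.14 within row 2, so the direction did not hold in both rows.

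Besides Ppard, Ppara and Ppargc1b had lung groups without overlap. Ppara read 641, 637 and 559 with acrylamide, against 826, 668 and 713 in controls, a difference of -0.26 ± 0.12 (SE; interval -0.56 to 0.04). Ppargc1b read 218, 254 and 205 with acrylamide, against 303, 255 and 296 in controls, a difference of -0.34 ± 0.13 (interval -0.66 to -0.02). The separation of Ppargc1b was slight, since acrylamide 29 (254.4) lay just under control 5 (254.8). Its lung difference was opposite in sign to the liver difference, and the lung minus the liver difference was -0.78 ± 0.24. Its second lung spot, at 25.9, 36.0 and 31.1 against 38.9, 40.2 and 31.5, overlapped and gave -0.25 ± 0.17. Pparg (1824, 1946 and 2082 against 1799.98, 2395 and 2104) and Ppargc1a (602, 675 and 533 against 710, 553 and 333) overlapped, with differences of -0.10 ± 0.14 and 0.24 ± 0.29.

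None of the 7 genes passed the adjusted threshold in lung (limma, adjusted p = 0.998 for each), nor did any of the 22252 genes tested, of which 1102 (4.95%) had an unadjusted p under 0.05. Ppargc1b was the single member below 0.05 without adjustment (limma, n = 3 against 3, unadjusted p = 0.0404 and adjusted p = 0.998). No member met a looser rule, a change of 1.5-fold or more together with an unadjusted p under 0.05, which 1.6% of all genes met. Groups without overlap were found for 3 of the 7 genes, all lower with acrylamide, against 6.85% of all genes in that direction, 4.08% in the other and 10.9% in both. With 3 arrays against 3, an exact permutation test of a single gene cannot give a p under 0.1.

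Markers of other cell types varied between the lung arrays. The summed scaled intensity of 8 alveolar macrophage genes was 160601, 160143 and 175854 with acrylamide, against 104271, 151134 and 150504 in controls. These sums did not overlap, and all 8 genes were higher by their means, with a median of 0.35. All 8 hepatocyte markers were higher too, with a median of 0.38, although their sums overlapped. The summed scaled intensity of 9 striated and cardiac muscle genes was 75334, 122014 and 75728 on acrylamide arrays 28, 29 and 30, against 202178, 93683 and 26113 on control arrays 4, 5 and 6. Pdk4 and Ppargc1a, both well expressed in muscle, were likewise highest on control 4 and lowest on control 6. The order of the other arrays differed. Control 5 had a higher muscle sum than acrylamide 28 and 30, but a lower Pdk4 reading (405, against 928 and 745). The sum of 8 adipocyte genes was 35654, 44664 and 16972 with acrylamide, against 50415, 56231 and 10221 in controls, with control 6 the lowest in this list as well. All 9 muscle and all 8 adipocyte genes were above background on every lung array. The part of muscle and fat in the lung values of Pdk4 and Ppargc1a, and of macrophages in those of the receptors and Ppargc1b, was not tested.

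**Figure D3:**
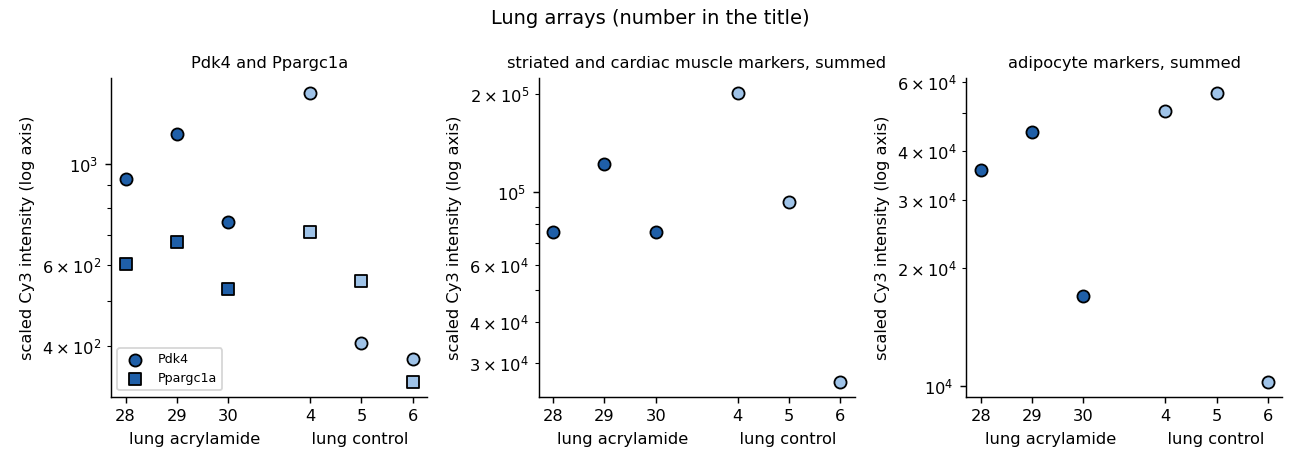
Scaled Cy3 intensity (log axes) on the 6 lung arrays of Pdk4 and Ppargc1a (left), the summed striated and cardiac muscle markers (middle) and the summed adipocyte markers (right), acrylamide arrays in dark and controls in light blue. Control 4 has the highest muscle sum (202178), Pdk4 (1428) and Ppargc1a (710), and control 6 the lowest of each (26113, 374 and 333). Control 5 lies above acrylamide 28 and 30 for the muscle sum but below them for Pdk4.

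The untreated arrays show how the set is arranged in the 2 tissues. Slide follows tissue in the titles, and the effects of slide and tissue cannot be told apart. Lung and liver differed at most genes, with 73.3% of 23300 tested passing an adjusted p of 0.05 in limma (30.5% higher and 42.9% lower in lung), so passing is the usual outcome and the sizes carry the information. The liver arrays of both groups also enter the contrast on which the genes were chosen, with Ppard and Pdk4 known to differ there, so the tissue values of Ppard and Pdk4 are given without a test.

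Ppara had the largest tissue difference of the set, 41.8-fold lower in untreated lung than in untreated liver (-5.39 ± 0.19 log2, limma, adjusted p = 3.22e-09). Its other spot gave -5.38 ± 0.24. Pparg was the single member higher in lung, at 1.18 ± 0.14 (adjusted p = 3.28e-05), or 2.26-fold. The near-background Pparg spot gave -1.26 ± 0.77, so this direction rests on the brighter spot. The coactivators were lower in untreated lung, with differences of -2.52 ± 0.17 for Ppargc1b (adjusted p = 2.86e-07) and -1.65 ± 0.27 for Ppargc1a (adjusted p = 0.000258). Among the targets, Angptl4 was also lower in lung, at -2.41 ± 0.40 (adjusted p = 0.000285), and Pdk4 was at -2.40 ± 0.46.

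Ppard was at -1.45 ± 0.17 in untreated lung minus untreated liver. Among acrylamide arrays, lung minus liver was 0.14 for Ppard and -0.30 for Pdk4. In words, the order for Ppard was liver control highest, then lung control, lung acrylamide and liver acrylamide, and the last 3 groups lay within 710 to 926. For Pdk4 the liver controls were highest, and liver acrylamide, lung acrylamide and lung control overlapped. Over all 12 arrays, the 6 lung and 6 liver arrays did not overlap for Ppara, Pparg, Ppargc1a, Ppargc1b and Angptl4 (two-sided exact permutation test, p = 0.00216 for each, the smallest that 924 splits can give). They overlapped for Ppard and Pdk4. The splits ignored treatment and the title numbers that recur in both tissues, and tissues without overlap always give the smallest p. The share of all genes without such overlap was not computed. As 73.3% of genes differed between the untreated tissues, nothing particular to these members is read from the separation.

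Of other PPAR pathway genes, sorted into lists by role, 141 were tested in liver. There 74 were higher and 67 lower with acrylamide, with a median difference of 0.02, whereas 46.9% of all genes were higher and 53.1% lower with a median of -0.02. None of the 141 passed the adjusted threshold in limma, nor did any of all 21169 genes, of which 1278 (6.04%) had an unadjusted p under 0.05. The looser rule was met by 1 higher and 1 lower gene, where it was met by 3.71% of all genes (1.69% higher, 2.02% lower). The higher gene was Angptl2, a secreted relative of Angptl4 linked to inflammation, at 29.96, 30.04 and 22.0 on acrylamide arrays, against 9.17, 8.13 and 9.45 on controls (1.605 ± 0.18). These readings are close to background, and liver acrylamide 30 was below its own limit. The lower gene was Cpt1b, the muscle form of the enzyme that admits fatty acids to mitochondria, at 64.6, 52.8 and 54.8 against 75.6, 198 and 96.8 (-0.98 ± 0.36). Cpt1b on acrylamide 30 was also below that array's limit.

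The 3 RXR partners were at 0.07 by median in liver, all slightly positive. Other coactivators and corepressors were mostly negative, 12 of 14 with a median of -0.22, and the largest values were Ncoa3 (-0.66 ± 0.29) and Lpin1 (0.62 ± 0.57). None of these met the looser rule.

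Targets of PPARalpha in fatty acid oxidation differed by list in liver. Mitochondrial oxidation genes were positive in 13 of 18 with a median of 0.05, led besides Cpt1b by the carnitine carrier Slc25a20 (0.52 ± 0.30) and Cpt1a (0.40 ± 0.24), the liver form of Cpt1b. Cpt1a read 33330.0, 24999 and 18201 with acrylamide, against 19064, 18194 and 19190.3 in controls, so only acrylamide 27 and 29 lay above the controls. Peroxisomal genes had a median of 0.03 (9 of 16 positive), and the 5 ketone body genes one of -0.15 (2 positive). The microsomal omega oxidation genes had a median of 0.41 with 5 of 6 positive. They are Aldh3a2 (0.29 ± 0.26) and Cyp4a genes, classic PPARalpha targets in rodent liver. The Cyp4a genes were split. Cyp4a12a was at 0.95 ± 0.45 and Cyp4a10 at 0.69 ± 0.61, while Cyp4a14 was at -0.57 ± 0.24, and as close paralogs their probes may share signal.

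Lists of fat handling were likewise mixed in liver. Uptake, binding and activation genes had a median of -0.10 (4 of 15 positive), with lipoprotein lipase (Lpl) at -0.61 ± 0.33. Lipid droplet and lipase genes had one of 0.08 (8 of 14), with the droplet protein Cidea at 1.28 ± 0.64 and Pnpla3 at -0.86 ± 1.19. Cidea read 29.3, 48.8 and 155 with acrylamide, against 23.9, 38.01 and 17.1, so the value turns on acrylamide 30. Other PPAR targets had a median of 0.02 (8 of 13), with the fasting hormone Fgf21 lowest at -1.05 ± 0.63. Fgf21 read 1697, 828 and 406 against 2269, 2562 and 876, with acrylamide 27 above control 4.

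PGC-1 partners and their mitochondrial targets were centred on -0.02 in liver, with 6 of 14 positive and Nr0b2, a corepressor of nuclear receptors, at -0.78 ± 0.50. The PPARgamma targets of fat cells had a median of -0.09 (4 of 9), with the glucose carrier Slc2a4 at -1.18 ± 0.59. Relatives of Pdk4 and Angptl4 had a median of 0.16 (10 of 14), led, apart from Angptl2, by the pyruvate dehydrogenase phosphatase Pdp2 at 0.54 ± 0.29 among genes above background on every array.

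In lung, 140 of these genes were tested, 73 higher and 67 lower with acrylamide, with a median of 0.01, whereas 48.3% of all genes were higher and 51.7% lower with a median of -0.01. None passed the adjusted threshold in limma, and 1 met the looser rule. It was Angptl7, another relative of Angptl4, at 195, 127 and 138 on acrylamide arrays, against 107, 107 and 86.0 on controls (0.60 ± 0.20). Angptl2 was at 0.50 ± 0.13 in lung, with 46.3, 48.8 and 58.7 against 34.6, 35.03 and 38.9, and its groups did not overlap in either tissue.

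The other lung lists kept close to 0, with 2 at the edges. Other PPAR targets were positive in 11 of 12 with a median of 0.21. They were led by the apolipoprotein Apoa5 (0.79 ± 0.42), Apoa2 (0.34 ± 0.25) and the lipid droplet factor Hilpda (0.31 ± 0.22). The microsomal omega oxidation genes, which are Cyp4a genes and Aldh3a2 (-0.11 ± 0.10), were negative in 5 of 6. Their median was -0.38, and Cyp4a12b led (-1.05 ± 1.22). In the first of these lists several genes are hepatocyte products, and the 8 hepatocyte markers summed to 34199, 32903 and 15965 on lung acrylamide arrays, against 16480 and 15227 on controls 4 and 5 and 32694 on control 6. Their part in the list was not tested. Coactivators and corepressors had a median of -0.13 (3 of 14 positive), with Ep300, a histone acetyltransferase, at -0.34 ± 0.10. Medians of the remaining lung lists lay between -0.11 for the RXR partners and 0.09 for ketone body genes.

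**Figure D4:**
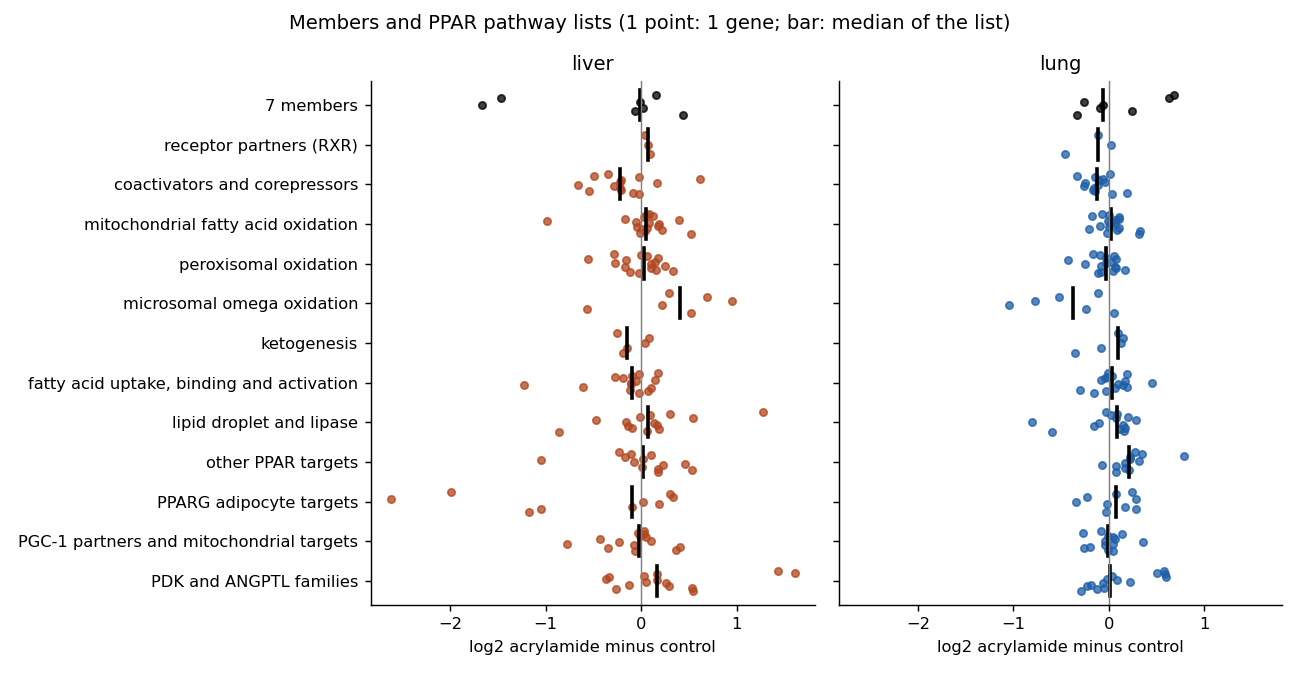
Log2 difference, acrylamide minus control, of each tested gene (points) in the 7-gene set and 12 lists of related genes, in liver (left) and lung (right), with the median of each list as a bar. The list medians lie between -0.22 and 0.41 in liver and between -0.38 and 0.21 in lung, while Ppard at -1.66 and Pdk4 at -1.47 lie apart from the other members in liver.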

How the data were processed

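Each deposited file gives, for 62976 spots, a linear Cy3 intensity that the authors obtained from the scan. The submitters' processing notes name Agilent Feature Extraction 10.7. Whether background was subtracted is not stated in the sources used here. The deposited series matrix equals these intensities times a constant for each array and served as an alternative.

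After 1319 control spots were removed, the 75th percentile of each array was subtracted on the log2 scale. Background was the 95th percentile of 308 negative control spots on each array, and spots above it on at least 3 arrays of a fit were tested. Genes were named through Entrez numbers (38054 spots), accessions (715) or the file (2242), using a RefSeq table of GRCm38.p6 for names, while 20646 spots had no name. A gene with several spots was taken at its brightest by mean. limma 3.58.1 (lmFit, eBayes) in R 4.3.3 was run within each tissue and over all 12 arrays for tissue contrasts, with Benjamini-Hochberg adjustment over all genes and a threshold of 0.05. The fits were tested on simulated data. No scan date was used. The opening number of the titles and the digit after it (1 or 2) were taken as slide and slide row, which the labels do not state.

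The members and the gene lists were chosen with earlier results of these data known. All members were named, with PPAR pathway list genes that met the looser rule and those with the largest differences among genes above background on all 6 arrays. Of the clock and cell marker genes that met the looser rule, only some were named. Alternatives covered scaling, the matrix, background filters, spot choice, variance prior, array weights, slide row, a joint fit, a title-number block and each array left out.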

Additional observations from a re-analysis of the deposited data

How the results depend on the processing

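In liver, Ppard and Pdk4 stayed negative and Ppargc1b positive in all 17 alternatives run, at -1.87 to -1.52, -1.67 to -1.26 and 0.29 to 0.54. As their liver groups did not overlap, neither leaving out an array nor comparing within a slide row could change these signs. The genes were also chosen on this contrast, so the unchanged signs are no support for it. Of the 7 genes, 4 were negative in liver, and 3 to 6 across alternatives. No liver gene passed the adjusted threshold in limma (1278 at unadjusted p under 0.05), against 2 in 1 fit of all 12 arrays and 0 to 1 with an array left out (1 without acrylamide 27). The looser rule took 785 liver genes, against 452 with every array above background, 2229 testing every spot, 2079 with arrayWeights and 1188 in the joint fit. Leaving out an array gave 696 to 1894, the highest without acrylamide 30. In lung it took 356 genes, against 987 testing every spot, 229 in the joint fit and 381 to 565 with an array left out (565 without control 5).

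The number of members meeting the looser rule in lung was 0, and 1 with arrayWeights (Angptl4, 0.99, unadjusted p = 0.0496 in limma). It was 0 to 1 with an array left out, the 1 being Pdk4 without control 4 (1.25, unadjusted p = 0.00204 in limma). With an array left out, Ppargc1a in lung ran over -0.062 to 0.49 (reversed without control 6) and Pparg over -0.20 to 0.0012 (reversed without control 5). Pparg in lung reversed to 0.19 with the mean of its spots, and its tissue difference reversed to -0.041 with the mean of its spots. Pparg in liver moved to 0.68 with that mean, as the spot near background was averaged in. Ppard between tissues reversed to 0.14, and Pdk4 shrank to -0.30, on acrylamide arrays. The tissue difference met the limma threshold for 7 genes, and for 5 to 7 across alternatives, which for Ppard and Pdk4 is a description. In the main fit 73.3% of all genes met it.

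Same-numbered liver and lung arrays did not deviate together (r of -0.02, -0.16 and 0.01), and the numbers were not taken as a pairing in the main fit. Pairs of unlike number gave -0.07 to 0.13. These values cannot show whether same-numbered arrays come from the same animal. With the title number as a replicate block, all 7 tissue differences passed, as 73.3% of all genes did in the main fit. For Ppard and Pdk4 this is a description. For the lung minus liver difference, which contains the liver contrast and is a description, 0 members passed. It was 1.59 for Ppard, -0.79 for Ppargc1b and 2.13 for Pdk4. Within a tissue the groups share no number. Precision is limited by 3 arrays a group and, for dim spots, by the high background of liver acrylamide 30.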

Other observations

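Genes of the circadian clock, a daily transcription cycle known to act on PPAR genes, stood apart between the groups in both tissues. Of 15 clock genes tested in liver, 5 were higher and 2 lower by 1.5-fold or more with an unadjusted p under 0.05 in limma, which held for 3.71% of all genes, and none passed the adjusted threshold. Dbp, a D-box transcription factor of clock output, read 9040.5, 5156 and 4999.9 on liver acrylamide arrays, against 1125, 1332 and 1199 on controls (2.34 ± 0.26). Its repressor counterpart Nfil3 was at -1.07 ± 0.18, and Per3 was at 1.44 ± 0.24. In lung 4 of 16 were higher and 3 lower, where 1.6% of all genes met the rule. Dbp read 5558, 6188 and 7466 on lung acrylamide arrays, against 4288, 1530.3 and 1514 on controls (1.56 ± 0.43), and Arntl was at -0.92 ± 0.14. The part of the clock in the values of Ppard and Pdk4 was not tested.

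Genes of fasting and the glucocorticoid response varied among the liver controls. The median of 18 genes, as log2 over the mean of the controls, was 0.02, -0.15 and 0.12 on acrylamide arrays 27, 29 and 30, against -0.23, 0.47 and -0.18 on controls 1, 3 and 4. The list of 18 had 9 higher and 9 lower in liver with a median of -0.04, and Irs2, an insulin signalling adaptor, met the looser rule at -0.98 ± 0.39, with 6072, 5234 and 8670 against 8747, 22401 and 10739. Among liver controls, array 3 was highest for Irs2, Angptl4 (107488), Ppara (41378) and the clock gene Per1 (10056), and array 1 was lowest for each of these. Ppargc1a and Ppargc1b were likewise highest on array 3 and lowest on array 1. The other members differed: Pdk4 was lowest on array 3 (2713), and Ppard (2975) and Pparg (954) were highest on array 4. In lung the list had 13 of 18 higher, with a median of 0.21 and no gene meeting the looser rule.

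The genes whose levels followed each member most closely over the 12 arrays, after the mean of each tissue was taken off, are given as a description. All points share the same 12 arrays and groups. For Ppard they were Dnmt3b (r = 0.97), Epha4 (0.95) and Nck2 (0.95), but within the 6 lung arrays Dnmt3b was at 0.38. For Pdk4 they were Phf21b (0.92), Fsd1l (0.91) and Fblim1 (0.91), for Ppargc1a Dok7 (0.95), Itpripl1 (0.94) and Entpd5 (0.93), and for Ppargc1b Frmd6 (0.92), Bahcc1 (0.89) and Tmem131l (0.85). Ppara was closest to Vamp2 (0.92), Nr4a1 (0.92) and Elavl1 (0.90), Pparg to Fbxo48 (0.88), Mcm3 (0.85) and Sytl4 (0.85), and Angptl4 to Marf1 (0.86), Ins2 (0.82) and Per1 (0.82).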
